A study of Ovis aries with 16 samples.

Results

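The distal block of the imprinted chromosome 18 miRNA cluster, from miR-382 to miR-410, was examined in sheep testis. The members were chosen by name: every known sheep miRNA (prefix oar-) of miR-382, miR-134, miR-485, miR-154a, miR-154b, miR-496, miR-377, miR-541, miR-409, miR-412, miR-369 or miR-410, from either arm of the hairpin. This gave 15 listed miRNAs of the 271 listed in all, of which 103 were known and 168 were predicted. In the gene order of the RefSeq annotation (assembly ARS-UI_Ramb_v3.0, used here for names and order alone), 15 miRNA genes ran from MIR382 to MIR410, 12 of them were in the rule and 10 of these had at least 1 listed miRNA. Both arms were listed for miR-382, miR-485, miR-377, miR-409 and miR-369. A single arm was listed for miR-134 (5p), miR-154a (3p), miR-154b (5p), miR-412 (3p) and miR-410 (3p), and miR-496 and miR-541 had no listed miRNA.

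Small RNAs of testis were sequenced in 16 sexually mature Merino rams, 1 library per male. The 8 well-fed males were fed for 65 days towards a change in body mass of 10%, and the 8 underfed males towards a change of -10%. All males were penned singly and ate the same feeds, oaten chaff and lupin grain, in different amounts, and the diets are the only difference between the groups that the labels give. The values are CPM (reads scaled to a common library total) within the miRNA class, so each is a share of the miRNA reads of a library and not an amount of RNA.

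The block lies in the DLK1-DIO3 imprinted domain, known in sheep as the Callipyge locus, where the miRNAs are made from a long non-coding transcript of the maternal chromosome that hosts many hairpins in a row. Each hairpin is cut into a 5p and a 3p arm, either of which can be loaded into an Argonaute protein and lower the translation or stability of mRNAs that pair with its seed. Many hairpins of the block are related in sequence and are grouped as the mir-154 family. The locus is best known for its high expression in placenta, brain and embryonic tissue, and several of its miRNAs are studied in neurons and in muscle.

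The depth differed much among libraries. Reads recovered from the CPM values came to 17163 to 503916 miRNA reads in the well-fed males (median 294248) and 27797 to 1058985 in the underfed males (median 532447). There were 3 libraries with fewer than 100000 reads, namely well-fed 5, underfed 6 and underfed 8, in which 1 read was worth 58.3, 36.0 and 19.96 CPM. In the other 13 libraries (7 well-fed and 6 underfed) 1 read was worth 0.944 to 6.71 CPM. In those 3 libraries a member of modest level could be counted at 0 or at 1 read, so the diet difference of each tested member is given with all 16 libraries and with the 13 deeper ones.

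The block was a small part of testis miRNA, and its last hairpins carried most of it. The highest levels were those of oar-miR-410-3p (mean 459 CPM over 16 libraries, rank 84 of 271 miRNAs) and oar-miR-409-3p (410 CPM, rank 88), which made up 37.6% and 33.6% of the block. The next was oar-miR-369-3p at 127.3 CPM, and the other 12 members had mean levels from 5.06 to 37.8 CPM. By hairpin, the 4 genes at the distal end (miR-409, miR-412, miR-369 and miR-410) held 34.7%, 2.13%, 12.8% and 37.6% of the block. The 6 listed hairpins before them held from 0.428% (miR-134) to 3.68% (miR-485) each. Mature miRNAs are of nearly the same length, so levels were compared between them with no correction for length. The reads behind these levels ranged from 29 for oar-miR-377-3p to 2210 for oar-miR-410-3p, summed over 16 libraries.

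**Figure D1:**
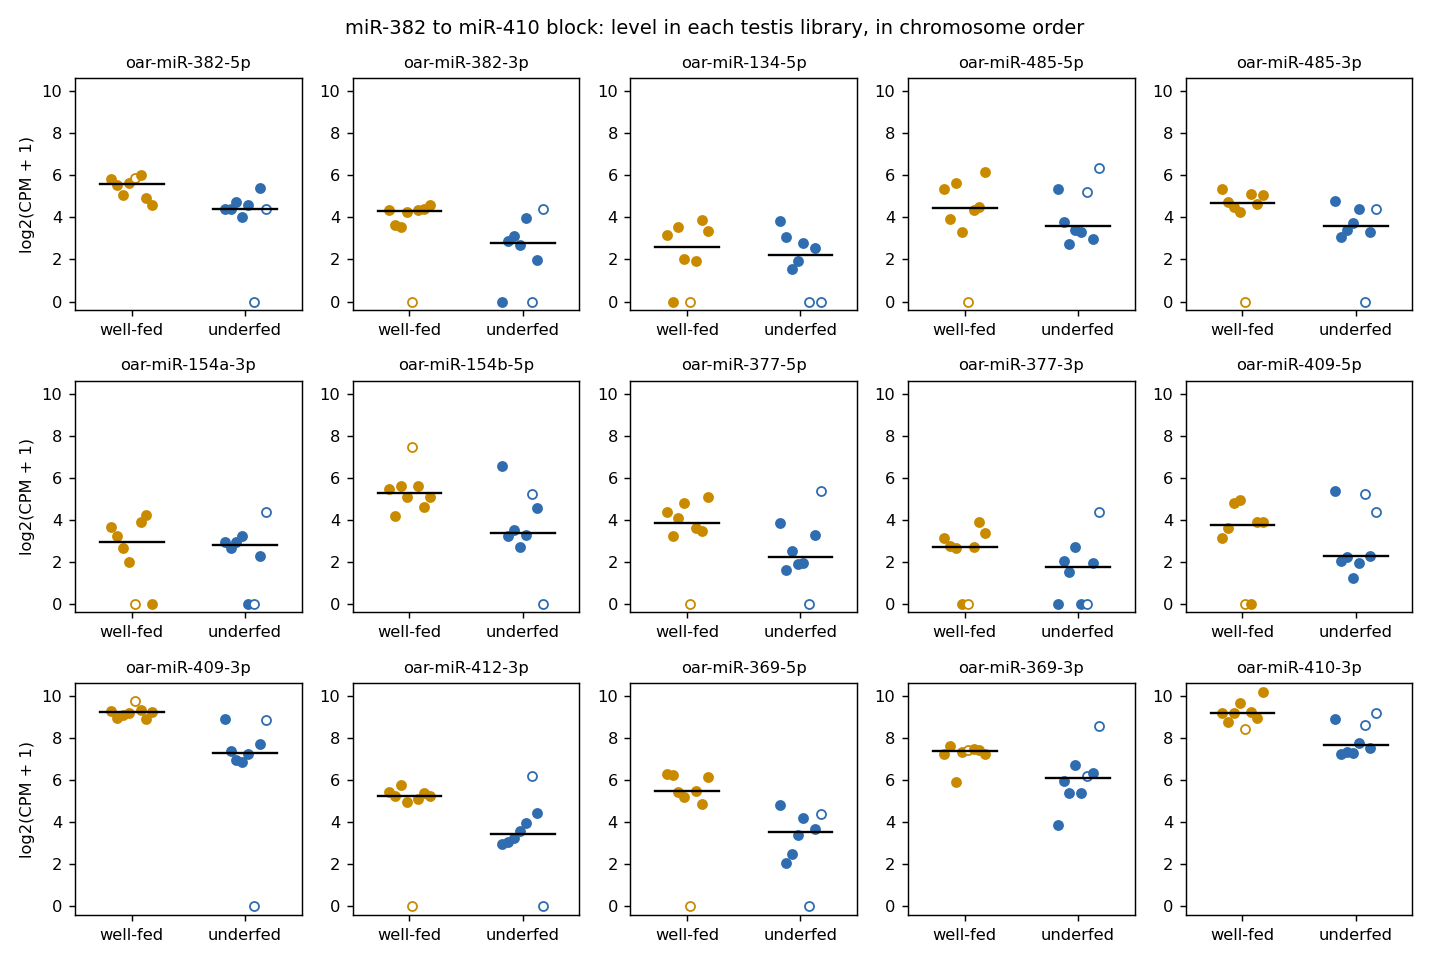
Each panel plots 1 of the 15 listed members as log2(CPM + 1) in the 8 well-fed (orange) and 8 underfed (blue) libraries, with the median as a bar and open circles for the 3 libraries under 100000 miRNA reads. The points of oar-miR-409-3p and oar-miR-410-3p sit highest, and the open circles are often at 0 or above the rest because 1 read is worth 19.96 to 58.3 CPM there.

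oar-miR-409-3p was the only tested member whose groups did not overlap over all 16 libraries. Its level was 476.3 CPM at the lowest, 594.7 at the median and 874.0 at the highest in well-fed males, and 0, 158.3 and 476.1 CPM in underfed males. The groups all but met at well-fed 7 (476.3 CPM) and underfed 1 (476.1 CPM), and the single 0 was in underfed 6, where a count of 0 allows up to 108 CPM. Groups without overlap, with every underfed value below every well-fed value, were found for 2.05% of the 244 miRNAs tested. The means were 607 ± 123 CPM (SD, n = 8) and 212 ± 169 CPM (SD, n = 8), an FC (ratio of arithmetic mean CPM, underfed/well-fed) of 0.350. In the limma fit across all miRNAs the log2 fold change was -2.06 (SE 0.84, 95% confidence interval -3.79 to -0.32), with an FDR of 0.131, and oar-miR-409-3p was not called differentially expressed (DE: FDR under 0.05 with FC under 0.67 or above 1.5). Without underfed 6 the log2 fold change was -1.11 and the FDR 0.0169, and in the 13 deeper libraries they were -1.15 (SE 0.23) and 0.00395. miR-409-3p has been studied mainly in tumours, as a regulator of cell migration.

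oar-miR-410-3p, from the last hairpin of the block, was the most abundant member and was above 0 in all 16 libraries. Its level was 349.6 CPM at the lowest, 581 at the median and 1163 at the highest in well-fed males, and 151, 203 and 579 CPM in underfed males. The groups overlapped through underfed 1 (483 CPM), underfed 6 (396 CPM) and underfed 8 (579 CPM), while the other 5 underfed males were below every well-fed male. The means were 626 ± 255 CPM (SD, n = 8) and 292 ± 169 CPM (SD, n = 8), an FC of 0.466. The log2 fold change was -0.73 (SE 0.28, 95% confidence interval -1.31 to -0.15), with an FDR of 0.112 (limma), short of DE. In the 13 deeper libraries it was -1.13 (SE 0.24) with an FDR of 0.00476, and oar-miR-410-3p was then DE. This set leaves out underfed 8, the highest underfed male, whose 579 CPM rested on 29 reads. In the 13 deeper libraries underfed 1 was the underfed male that remained within the well-fed range, whose lowest value was 437 CPM.

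The hairpin between them in the order, miR-369, gave both arms. miR-369-3p is known for binding AU-rich elements of mRNAs and for raising translation in resting cells. oar-miR-369-3p was at 58.6 CPM at the lowest, 167 at the median and 199 at the highest in well-fed males, and at 13.4, 66.9 and 379.2 CPM in underfed males. The highest underfed value was that of underfed 8, from 19 reads. The log2 fold change was -0.69 (SE 0.52) with an FDR of 0.401 over 16 libraries, and -1.08 (SE 0.46) with an FDR of 0.0987 in the 13 deeper ones (limma). oar-miR-369-5p was at 0 CPM at the lowest, 43.4 at the median and 78.3 at the highest in well-fed males, and at 0, 10.7 and 26.8 CPM in underfed males. The well-fed 0 came from well-fed 5 and the underfed 0 from underfed 6. Its FC of 0.251 was the lowest in the block, and its log2 fold change was -1.46 (SE 0.83) with an FDR of 0.265 over 16 libraries. In the 13 deeper libraries its groups did not overlap (27.8 to 78.3 CPM in well-fed and 3.15 to 26.8 CPM in underfed males), the log2 fold change was -1.78 (SE 0.38) and the FDR was 0.00552.

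oar-miR-412-3p, from the hairpin between miR-409 and miR-369, had 138 reads in all. It was at 0 CPM at the lowest, 37.0 at the median and 53.3 at the highest in well-fed males, and at 0, 9.79 and 72.0 CPM in underfed males. The 0 values were those of well-fed 5 and underfed 8, and the highest underfed value was 2 reads in underfed 6, all shallow libraries, while the highest well-fed value was 10 reads in well-fed 3. The log2 fold change was -0.80 (SE 0.85) with an FDR of 0.558 over 16 libraries. In the 13 deeper libraries it was at 30.02 to 53.3 CPM in well-fed and 6.71 to 20.4 CPM in underfed males, with no overlap, a log2 fold change of -1.30 (SE 0.34) and an FDR of 0.0121. Without overlap in the 13 deeper libraries there were thus 3 of 15 members (oar-miR-409-3p, oar-miR-412-3p and oar-miR-369-5p), against 5.67% of the 247 miRNAs tested there.

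The minor arm of miR-409 had 52 reads in all. oar-miR-409-5p was at 0 CPM at the lowest, 12.6 at the median and 30.02 at the highest in well-fed males, and at 1.39, 3.83 and 40.2 CPM in underfed males. The highest underfed values were 40.2 CPM in underfed 1 (6 reads) and 36.0 CPM in underfed 6 (1 read). Its log2 fold change was 0.42 (SE 0.82) with an FDR of 0.746 over 16 libraries and -0.56 (SE 0.70) with an FDR of 0.573 in the 13 deeper ones, so its direction differed between the sets of libraries.

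The hairpins at the start of the block had low levels. Over 16 libraries the SEs of their tested members were 0.65 (oar-miR-382-5p) to 0.81 (oar-miR-154a-3p). At the distal end they were 0.28 (oar-miR-410-3p) to 0.85 (oar-miR-412-3p, with 0 or few reads in the shallow libraries). In the 13 deeper libraries the SEs were 0.32 (oar-miR-485-3p) to 0.70 (oar-miR-377-3p) at the start. At the distal end they were then 0.23 (oar-miR-409-3p) to 0.70 (oar-miR-409-5p), with oar-miR-412-3p at 0.34. oar-miR-382-5p, whose hairpin opens the block, was at 23.2 CPM at the lowest, 46.7 at the median and 63.5 at the highest in well-fed males, and at 0, 20.04 and 40.9 CPM in underfed males. There were 5 underfed males below every well-fed male. The log2 fold change was -1.02 (SE 0.65, FDR 0.333) over 16 libraries and -0.30 (SE 0.34, FDR 0.543) in the 13 deeper ones. Its other arm, oar-miR-382-3p, was at 0 to 23.2 CPM in well-fed males (median 18.7) and at 0 to 19.96 CPM in underfed males (median 5.92), with a log2 fold change of -0.87 (FDR 0.497) and, in the 13 deeper libraries, -1.24 (FDR 0.107). oar-miR-134-5p, a miRNA known for limiting dendritic spine size in neurons, exceeded 5 CPM in 7 libraries and did not pass the filter on low values over 16 libraries. It was above 0 in 12 libraries, in total 35 reads, at 0 to 13.9 CPM in well-fed males (median 5.42) and at 0 to 13.4 CPM in underfed males (median 3.82). It passed the filter in the 13 deeper libraries, where its log2 fold change was 0.46 (SE 0.60, FDR 0.589).

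Both arms of miR-485, a hairpin studied at synapses, were of like level. oar-miR-485-5p was at 0 to 69.5 CPM in well-fed males (median 20.58) and at 5.67 to 79.8 CPM in underfed males (median 11.1). oar-miR-485-3p was at 0 to 39.2 CPM in well-fed males (median 24.7) and at 0 to 26.8 CPM in underfed males (median 10.96). The groups overlapped for both, and the log2 fold changes were 0.40 (FDR 0.735) and -0.44 (FDR 0.723) over 16 libraries and -0.70 (FDR 0.242) and -0.56 (FDR 0.201) in the 13 deeper ones.

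The pair miR-154a and miR-154b gave the family its name. oar-miR-154b-5p was at 17.0 CPM at the lowest, 38.0 at the median and 175 at the highest in well-fed males, and at 0, 9.57 and 93.9 CPM in underfed males. The highest value in well-fed males was 3 reads in well-fed 5, while that in underfed males was 14 reads in underfed 1. Its log2 fold change was -1.30 (SE 0.72, FDR 0.262) over 16 libraries and -0.65 (SE 0.45, FDR 0.292) in the 13 deeper ones. oar-miR-154a-3p was at 0 to 17.9 CPM in well-fed males (median 6.92) and at 0 to 19.96 CPM in underfed males (median 5.93), with log2 fold changes of 0.12 (FDR 0.935) and -0.13 (FDR 0.922). oar-miR-377-5p was at 0 to 32.4 CPM in well-fed males (median 13.5) and at 0 to 39.9 CPM in underfed males (median 3.82). Its log2 fold change was -0.67 (FDR 0.586) over 16 libraries and -1.14 (FDR 0.0799) in the 13 deeper ones. oar-miR-377-3p was at 0 to 13.9 CPM in well-fed males (median 5.60) and at 0 to 19.96 CPM in underfed males (median 2.40), with log2 fold changes of -0.41 (FDR 0.744) and -0.87 (FDR 0.388).

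Counted over 16 libraries, none (0) of the 14 tested members was DE by limma, while 3.28% of the 244 miRNAs tested were DE in either direction. At an unadjusted p under 0.05 there were 2 members, both lower in underfed males, against 11.5% of all miRNAs in that direction. The modelled value was lower in underfed males for 11 of the 14 members and for 52.9% of all miRNAs, and FC was under 0.67 for 10 of the 14 members and for 41% of all miRNAs. The median log2 fold change was -0.71 over the 14 members and -0.08 over the 244 miRNAs. Since tissue was sequenced in bulk, fewer cells of a type and less RNA per cell cannot be told apart for any of these values.

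In the 13 deeper libraries 4 of 15 members were DE, all lower in underfed males, against 8.5% of the 247 miRNAs tested there. These were oar-miR-409-3p, oar-miR-412-3p, oar-miR-369-5p and oar-miR-410-3p, from each of the 4 hairpins at the distal end. The other arms there, oar-miR-369-3p (FDR 0.0987, limma) and oar-miR-409-5p (FDR 0.573), were not DE. Earlier in the block, oar-miR-382-3p (-1.24, SE 0.55) and oar-miR-377-5p (-1.14, SE 0.45) had log2 fold changes of like size without being DE. The remaining early members ranged from -0.87 (oar-miR-377-3p) to 0.46 (oar-miR-134-5p). This set of libraries leaves out underfed 8, the underfed male in which the block took its largest share (0.168%). There were 7 members with an unadjusted p under 0.05, against 19% of all miRNAs for lower values. The modelled value was lower in underfed males for 14 of 15 members, with oar-miR-134-5p as the exception, against 51% of all miRNAs, and the median log2 fold change was -0.87 against -0.02. A voom fit, which weights each value by the precision expected at its modelled read count, was run on all 16 libraries. It called the same 4 members DE, with FDR values of 0.00615 (oar-miR-409-3p), 0.0351 (oar-miR-412-3p), 0.00517 (oar-miR-369-5p) and 0.0141 (oar-miR-410-3p). Under voom the modelled value was lower for 14 of 14 members and for 52% of the 244 miRNAs. Of the 244 miRNAs, 9.43% were DE and lower.

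**Figure D2:**
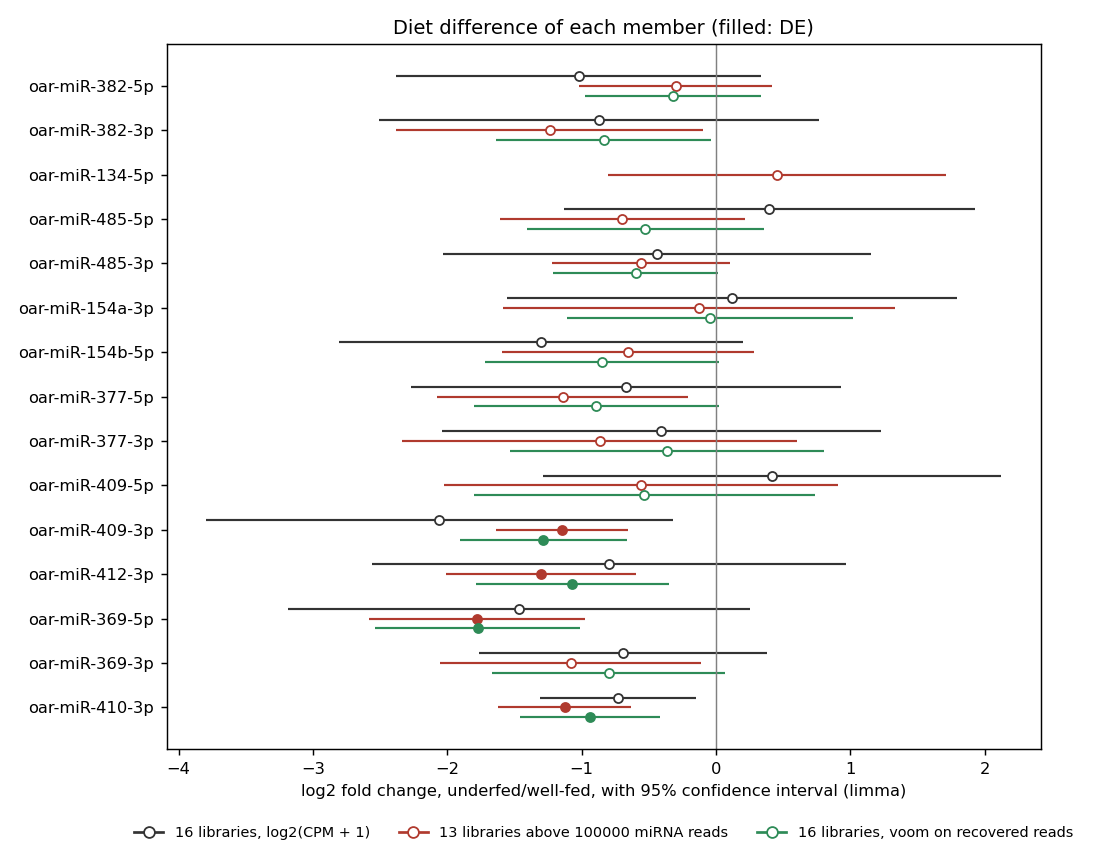
Log2 fold change (underfed/well-fed) of each member with its 95% confidence interval in 3 limma fits: 16 libraries (black), the 13 libraries above 100000 miRNA reads (red) and voom on 16 libraries (green), with filled circles for DE members. None is filled in black, and the same 4 members (oar-miR-409-3p, oar-miR-412-3p, oar-miR-369-5p and oar-miR-410-3p) are filled in red and green, on scales within the miRNA class. Against the black fit, 8 of 14 members turn to higher with piRNAs in the total, oar-miR-410-3p and oar-miR-412-3p among them.

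**Figure D3:**
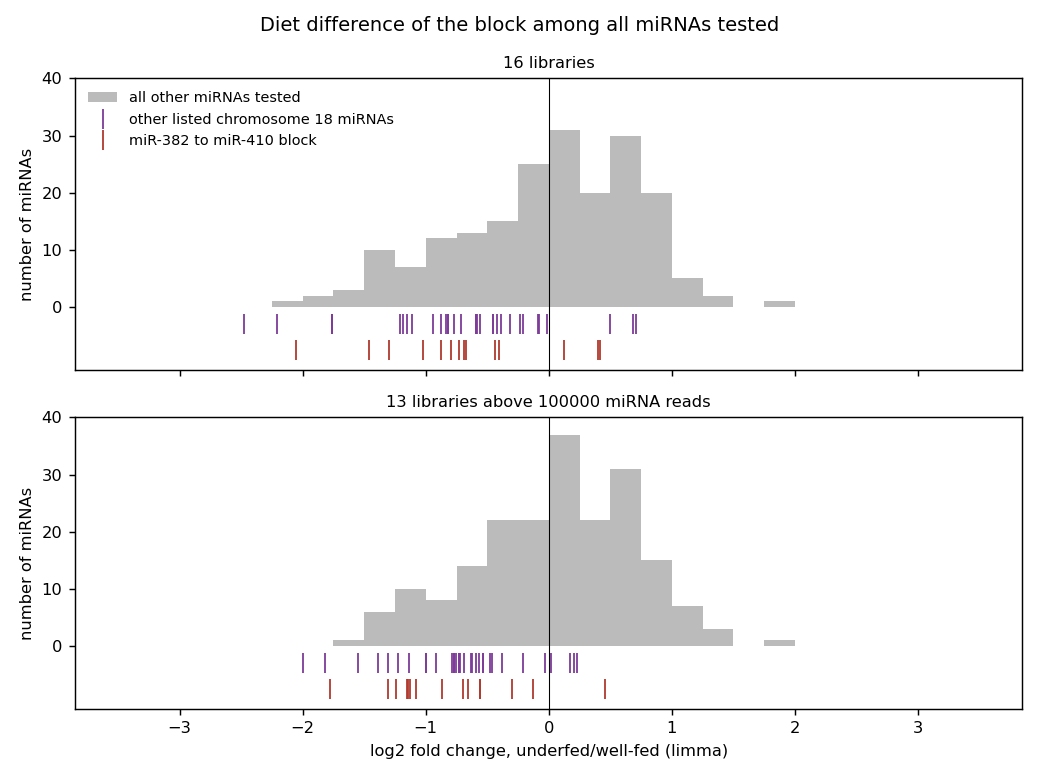
Histograms of the log2 fold change (underfed/well-fed) of the miRNAs tested outside the locus, with ticks below for the other listed chromosome 18 miRNAs (purple) and for the members (red), in 16 libraries (top) and in the 13 deeper ones (bottom). The red ticks have a median of -0.71 at the top and -0.87 at the bottom, against -0.08 and -0.02 over all miRNAs tested, on the scale within the miRNA class.

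The direction held for shares of miRNA reads, with and without TMM, and turned for most members on a scale that included piRNA reads. When miRNA and piRNA reads were scaled to a joint total, 3 of the 14 members were lower in underfed males (oar-miR-409-3p, oar-miR-369-5p and oar-miR-154b-5p), 0 were DE and 0 had an unadjusted p under 0.05 (limma), against 15.2%, 24.6% and 47.5% of all miRNAs, in either direction for the latter pair. The median over all 244 miRNAs then moved to 0.82 from -0.08, and that of the members to 0.18. Without TMM, the normalization between libraries, the median over all miRNAs was -0.51 and that of the members -1.18, and oar-miR-410-3p (FDR 0.0141) and oar-miR-409-3p (FDR 0.0430) were DE, against 14.8% of all miRNAs. The modelled value was then lower in underfed males for 13 of 14 members and for 74.2% of all miRNAs. These scalings shift all miRNAs of a library alike, so the members' median minus that of all miRNAs is nearly fixed by construction and is -0.63 (TMM), -0.68 (no TMM) and -0.64 (joint).

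Summed over its 15 members, the block took 0.139% to 0.226% of miRNA reads in well-fed males (median 0.167%) and 0.0417% to 0.168% in underfed males (median 0.0571%). The means were 0.168% ± 0.0282 (SD, n = 8) and 0.0760% ± 0.0458 (SD, n = 8). Of the underfed males, underfed 8 (0.168%, 95% Wilson interval 0.135% to 0.208%, 84 reads) lay within the well-fed range and underfed 1 (0.126%, interval 0.109% to 0.145%, 188 reads) just under it. These intervals cover counting error only. With the 13 deeper libraries the underfed range was 0.0417% to 0.126% and did not overlap with the well-fed range. After TMM scaling it was 0.0529% to 0.167% in underfed males and 0.108% to 0.180% in well-fed males, again with underfed 8 inside the well-fed range.

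**Figure D4:**
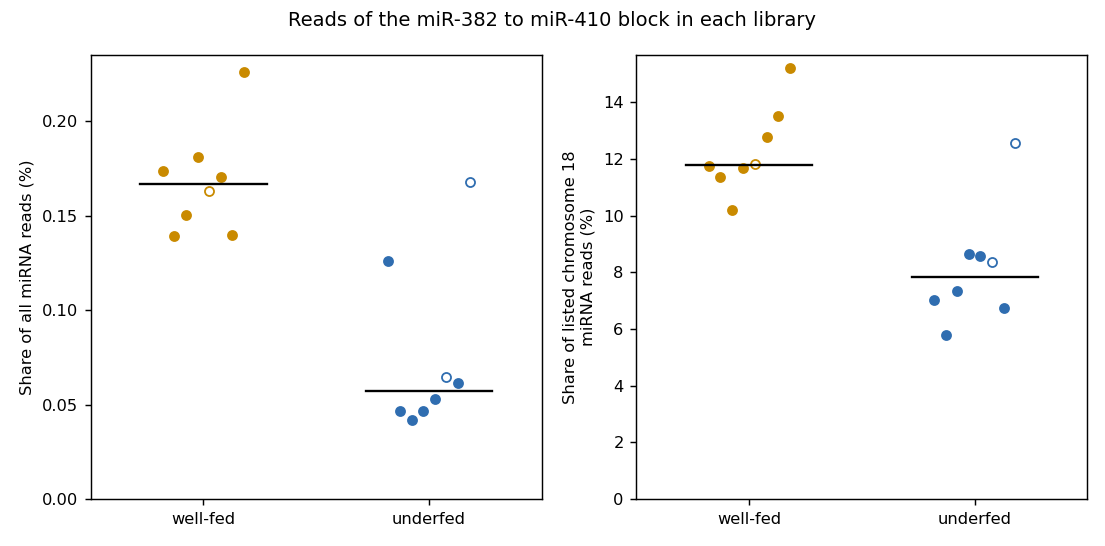
Reads of the block in each library as a percent of all miRNA reads (left) and of the reads of all listed chromosome 18 miRNAs (right), with medians as bars and open circles for the 3 shallow libraries. The medians are 0.167% and 0.0571% on the left and 11.8% and 7.85% on the right, and in both panels underfed 8 sits within the well-fed range.

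The rest of the locus gave the setting for these values. Besides the block, 39 known miRNAs of the chromosome 18 locus were listed and 33 were tested over 16 libraries. Of these, 3 were DE (oar-miR-411b-3p, oar-miR-3958-3p and oar-miR-323a-3p, all lower in underfed males), 30 had a lower modelled value, and their median log2 fold change was -0.59. In the 13 deeper libraries 5 of the 33 were DE, with a median of -0.72. No test of the difference between the block and the rest of the locus was run, so neither its medians nor its counts set it apart.

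As a percent of the reads of all listed chromosome 18 miRNAs, a ratio within a library that needs no normalization between libraries, the block made up 10.2% to 15.2% in well-fed males (median 11.8%) and 5.77% to 12.6% in underfed males (median 7.85%). In the 13 deeper libraries the underfed range was 5.77% to 8.64%, below every well-fed male. This ratio rested largely on oar-miR-127, from the other end of the locus, which held 63.4% of the mean CPM of the locus outside the block and had a log2 fold change of -0.01 (FDR 0.970). When oar-miR-127 was left out, the block made up 23.0% to 28.2% in well-fed males (median 26.1%) and 17.1% to 25.8% in underfed males (median 21.8%). The groups then overlapped, also in the 13 deeper libraries. The overlap came from underfed 1 (25.8%) alone, with underfed 7 (22.8%) just under the well-fed range.

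The use of the arms was compared within each hairpin from pooled reads. The 3p arm made up 97.6% of miR-409 reads in well-fed males and 97.2% in underfed males, with 1251 and 733 reads of that arm. For miR-369 it made up 76.4% (360 of the reads) and 88.7% (298 of the reads). By library, the log2 ratio of 3p to 5p reads of miR-369 was 0.46 to 2.64 in 7 well-fed males and -1.0 to 4.30 in 7 underfed males, so the groups overlapped, with the same ranges in the 13 deeper libraries. The lowest ratio was that of underfed 1, with 2 reads of 3p and 4 of 5p. miR-382 gave mostly 5p reads, with 28.9% and 19.6% from the 3p arm. miR-485 was even, with 50.0% and 50.5%, and miR-377 had 30.8% and 36.1% from 52 and 36 reads. For the leading pair, the log2 ratio of oar-miR-410-3p to oar-miR-409-3p was -1.32 to 0.96 in 8 well-fed males, with the lowest value in well-fed 5, and -0.16 to 0.56 in 7 underfed males, since underfed 6 had 11 reads of oar-miR-410-3p and 0 of oar-miR-409-3p. It was -0.18 to 0.96 and -0.16 to 0.56 in the 13 deeper libraries.

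Several marker miRNAs were listed for the cell types a testis sample can hold, and their levels stood as follows beside the block. The 3 miRNAs of late male germ cells (candidate-miR-30, candidate-miR-31 and candidate-miR-161, homologues of miR-34b, miR-34c and miR-449a) were all above 0 in 16 libraries, and their sum was 47497 to 71079 CPM in well-fed males (median 64054) and 10978 to 58155 CPM in underfed males (median 21506). Of the 3, 2 were DE and lower in underfed males. In underfed 1 and underfed 8, where the block took the largest shares among underfed males, this sum was 44629 and 58155 CPM. The smooth muscle and peritubular list (2 of 3 listed) was at 153985 to 210989 CPM in well-fed and 138660 to 215633 CPM in underfed males. The leukocyte and blood list (4 of 4 listed) was at 3514 to 9386 and 2854 to 9375 CPM, the skeletal muscle list (2 of 4 listed, without oar-miR-1 and oar-miR-206) at 117 to 814 and 379.2 to 778 CPM, and no member of these lists was DE. In underfed 1 and underfed 8 the smooth muscle and peritubular list was at 138660 and 215633 CPM, the lowest and the highest underfed values. The leukocyte and blood list was at 8173 and 2854 CPM there, and the skeletal muscle list at 778 and 379.2 CPM. The part of any cell type in the levels of the block was not tested.

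The miRNAs most like oar-miR-410-3p outside the block were found from the mean absolute difference of diet-centred log2 levels over 16 libraries, so that the difference between the diets itself was left out. They were candidate-miR-161 (0.321 on the log2 scale), oar-miR-3958-3p (0.339), which lies in the same locus, and candidate-miR-76 (0.352). The median over 230 candidates was 0.719. The other tested members were farther away than this median, from 0.834 (oar-miR-485-5p) to 1.41 (oar-miR-154a-3p), with oar-miR-409-3p at 1.16. Such a distance grows with counting error, which is large for members of few reads, and that of oar-miR-409-3p includes its 0 in underfed 6. It therefore cannot show whether the hairpins of the block vary together. The marker sums and these distances were taken over 16 libraries alone.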

How the data were processed

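Small RNAs of right testes were sequenced on a HiSeq system and split by CASAVA 1.8. The authors trimmed adaptors, removed Rfam matches, counted miRNA reads (18 to 25 nt) against miRBase 20 and miRDeep2 predictions on Oar_v3.1, and piRNA reads of 26 to 32 nt. The authors deposited CPM, scaled within miRNAs and within piRNAs, and tested their own counts with edgeR. How reads that match several family members were assigned is not given in the sources used here.

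Reads were recovered by dividing each miRNA value by the value of 1 read, and 93.7% to 99.0% of low values were whole (within 0.1 read). A count of 3 reads, taken as the floor, was 0.000283% to 0.0175% of miRNA reads. The planned samples and filter were kept, and log2(CPM + 1) values after TMM (trims of 30% and 5%) were fitted with limma 3.58.1 in R 4.3.3 (empirical Bayes trend, two-sided) for every miRNA that exceeded 5 CPM in 8 or more of 16 libraries. DE required a Benjamini-Hochberg FDR under 0.05 over all miRNAs tested and FC under 0.67 or above 1.5. The log2(CPM + 1) scale can understate the fold changes of low miRNAs, and a shallow library with no read can overstate them. That of oar-miR-382-5p was -1.02 over 16 libraries, -0.30 in the 13 deeper ones and -0.32 with voom. Other normalizations, filters, pseudocounts, a covariate, a replicate block, voom, the 13 deeper libraries and each male left out were tried as alternatives. Scripts were tested on simulated data (Python 3.11.15, numpy 2.4.6, pandas 2.3.3).

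Groups and replicate numbers came from the labels, which name no batch, and each library is a separate male. Every listed member is named, with the 3 other miRNAs most like the most abundant member and the fixed lists of locus and cell type miRNAs. oar-miR-127 was singled out after its values were seen. Members and lists were chosen with earlier results of these data known. Homologues of predicted miRNAs are those the study pairs by number. Sequences of the members were not used here.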

Additional observations from a re-analysis of the deposited data

Results flagged for a closer look

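A library standing apart from the other 7 of its diet by Dixon's test at the 95% level was found in 11 of 34 groups of 8 values. A chance rate of about 1 group in 20 would hold for independent values of equal spread. The libraries differed in depth and the groups shared them, so the 11 cannot be set against that rate. Of these 11 values, 9 came from the 3 libraries under 100000 miRNA reads. In underfed 8, high values were found for oar-miR-485-5p (79.8 CPM), oar-miR-154a-3p (19.96 CPM), oar-miR-377-5p (39.9 CPM), oar-miR-377-3p (19.96 CPM) and oar-miR-369-3p (379.2 CPM), where 1 read was worth 19.96 CPM. In well-fed 5, oar-miR-154b-5p (175 CPM) and oar-miR-409-3p (874.0 CPM) were high and oar-miR-412-3p was at 0. In underfed 6, oar-miR-412-3p was high at 72.0 CPM, from 2 reads.

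The other 2 values came from deeper libraries. oar-miR-154b-5p was at 93.9 CPM in underfed 1, from 14 reads, and the next underfed male was at 36.0 CPM. oar-miR-369-3p was at 58.6 CPM in well-fed 3, from 11 reads, and the next well-fed male was at 148 CPM.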

How the results depend on the processing

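Numbers of DE miRNAs, for members, other listed chromosome 18 miRNAs and all miRNAs, were 0, 3 and 8 as reported. They were 2, 7 and 36 with no TMM, 0, 0 and 60 with joint normalization, 0, 6 and 18 with the log2 class total as a covariate, 4, 5 and 25 in the 13 deeper libraries, and 4, 5 and 26 with voom. With FC taken after TMM scaling of the CPM (chosen after seeing the data), 15 of all miRNAs were DE, and 0 members and 3 others. No filter and pseudocounts of 5 and 0.1 CPM left all 3 numbers as reported. Leaving out each male in turn gave 0 to 1 members, 0 to 5 others and 0 to 22 of all miRNAs. The members so called were oar-miR-409-3p without underfed 6 (log2 fold change -1.11, FDR 0.0169) and oar-miR-410-3p without underfed 8 (-0.86, FDR 0.0459).

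Some log2 fold changes turned. With joint normalization they became 0.22 (oar-miR-410-3p), 0.27 (oar-miR-369-3p), 0.039 (oar-miR-382-5p), 0.045 (oar-miR-412-3p), 0.40 (oar-miR-485-3p), 0.096 (oar-miR-382-3p), 0.13 (oar-miR-377-5p) and 0.33 (oar-miR-377-3p). For oar-miR-485-5p they were -0.013 with no TMM, -0.70 in the 13 deeper libraries and -0.52 with voom, and for oar-miR-409-5p -0.56 and -0.53 with the latter pair. For oar-miR-154a-3p they were -0.16 with no TMM, -0.076 with the covariate, -0.13 in the 13 deeper libraries and -0.047 with voom. With each male left out, oar-miR-485-5p ranged from -0.17 to 0.66, oar-miR-154a-3p from -0.21 to 0.47 and oar-miR-485-3p from -1.01 to 0.025. None of these turned values was DE, and the cause was not tested. The difference in the share of miRNA reads (underfed minus well-fed mean) was -0.092 percentage points, -0.058 after TMM scaling, -0.11 in the 13 deeper libraries and -0.11 to -0.084 with each male left out.

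Replicate numbers are shared by the diets in the labels, but the males were not paired. With the replicate number as a block (replicate block), 0 members, 2 others and 7 of all miRNAs were DE. Deviations of same-numbered males had a mean correlation of 0.047, above 0.1 in 3 of 8 pairs, and 5 of 16 males correlated best with their own number. The planned edgeR test on recovered reads was not run, because not all low values were whole reads. Depth limits the members under about 100000 reads, where the floor of 3 reads was 59.9 to 175 CPM, above the mean of 12 members.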
